A study of Mus musculus with 24 samples.

Results

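The cytosolic ribosomal protein genes were followed here through the hippocampus of wild-type (WT) and MSK1 kinase-dead (MSK1 KD) mice kept in standard housing (SH) or an enriched environment (EE). Members were chosen by symbol: Rpl, Rps or Rplp, then a number, then at most one of the endings a, x, l, l1 or al. A member also needed 10 or more counts in at least 3 of the 22 libraries that passed the study's quality control. Of the 49568 gene symbols in the files, 85 matched the pattern and 82 also reached the count minimum. The 3 left out were Rpl10l, Rpl39l and Rps12l1. The members comprised 51 genes named for the large subunit and 31 for the small subunit. The pattern was meant to leave out pseudogenes, but Rpl6l and Rps4l, which are annotated as such, matched it and were kept. The question put to the family was whether Rpl22l1 and Rpl39 differed between genotypes alone or together with the other members.

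Mice were 12 weeks old according to the labels and, by the methods of the study, male and on the C57-Bl/6J background after backcrossing from C57-Bl/6n, and each library came from whole hippocampus. MSK1 KD mice carry an aspartate-to-alanine substitution in the endogenous Rps6ka5 gene that inactivates the N-terminal kinase domain, so the transcript level of Rps6ka5 does not check the genotype labels. The WT and homozygous mutant mice were bred as separate lines, so differences between lines other than the mutation cannot be told apart from genotype. SH was ordinary caging. EE animals lived from before birth in larger cages with a wheel and objects. Of the 24 libraries, 6 per group, the 17 that the study kept made up the main set: 5 WT SH, 5 KD SH, 3 WT EE and 4 KD EE. A wider set of 22 added 1 WT SH, 1 KD SH, 2 WT EE and 1 KD EE library that the study had removed for poor correlation within their group.

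Ribosomal proteins assemble with ribosomal RNA into the small subunit, which decodes mRNA, and the large subunit, which forms peptide bonds. Their mRNAs are abundant in every cell, and most begin with a C followed by a run of pyrimidines, the 5′ terminal oligopyrimidine (TOP) motif, through which growth signalling controls their translation as a group. In neurons they are also found in dendrites, where local protein synthesis takes place. A few ribosomal proteins have paralogs. Rpl22l1 is the paralog of Rpl22, an RNA-binding protein of the large subunit, and Rpl22 protein is known to hold down Rpl22l1 mRNA. Rpl39 encodes a very small basic protein that lines the tunnel through which the growing peptide leaves the ribosome. MSK1 is a nuclear kinase activated downstream of ERK and p38 that phosphorylates CREB and histones.

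The start of the gene is shown for both genes of the question and for Rps27 and Rpl34, 2 other members with large KD over WT values in SH. These are reference sequences of RefSeq (build GRCm38.p6), which held a promoter for 60 of the 82 members. Each covers 35 bases before the annotated start and 25 from it onward, on the strand of the gene, and capitals mark the longest run of 5 or more pyrimidines that starts no more than 10 bases before the start.
Rpl22l1: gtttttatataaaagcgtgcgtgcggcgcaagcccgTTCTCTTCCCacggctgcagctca
Rpl39: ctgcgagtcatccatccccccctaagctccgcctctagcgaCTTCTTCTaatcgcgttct
Rps27: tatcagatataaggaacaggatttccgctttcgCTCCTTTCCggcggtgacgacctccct
Rpl34: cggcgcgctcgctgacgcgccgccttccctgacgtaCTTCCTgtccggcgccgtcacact
The Rpl22l1 window (chr3:28805473-28805532, plus strand) held a run of 10 pyrimidines, and the Rpl39 window (chrX:37085198-37085257, minus strand) a run of 8. The run was 9 bases in Rps27 (chr3:90213624-90213683, minus strand) and 6 bases in Rpl34 (chr3:130730374-130730433, minus strand). Rpl9, which ranked 3rd in KD SH over WT SH and so above Rpl34 and Rps27, is not shown. Its window held no such run. A run of 5 or more was found in 40 of the 60 members, and the median over all 60 was 6 bases when a window without such a run was counted as 0. Such runs were not counted over all genes, so whether this share is particular to the members is not known. The search did not require a run to begin with C or at the annotated start. The RefSeq start lay 72 bases from the GENCODE start for Rpl22l1 and 180 bases from it for Rpl39, so which base begins the transcript in this tissue is not settled by these sequences. The letters CTTTCC were found on the gene strand in 16.7% of the 60 member windows and in 2.88% of 27025 windows of all genes. On either strand the shares were 20% and 5.32%. These are matches of letters, with no measurement of binding or initiation behind them.

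Libraries held between 8911999 and 56752074 counts on genes in the set of 22, and between 13003876 and 54292242 in the set of 17. Levels are given as CPM, the count of a gene scaled to a common library size, with TMM scaling over the 22 libraries. Dentate granule cell markers summed to between 260 and 435 CPM and pyramidal cell markers to between 435 and 653 CPM, with no marker of either list at 0 in any group. Choroid plexus, which is not part of the hippocampus, varied more: the sum of its 10 markers ran from 236 to 2736 CPM in WT SH and from 220 to 4284 CPM in KD SH, against 227 to 7889 CPM in WT EE and 455 to 8209 CPM in KD EE. In the 17 libraries, all 10 were called higher in EE than in SH in either genotype. In bulk tissue, a difference in level can come from the number of cells of a type or from the RNA per cell, and these cannot be told apart.

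The 82 members together took between 0.886% and 1.3% of the counts on genes in the 22 libraries. Per kb of the main transcript, the highest median levels belonged to Rplp1 (722 CPM per kb), a protein of the ribosomal stalk, followed by the small subunit genes Rps15 (419.7) and Rps29 (376) and the large subunit genes Rpl3 (343) and Rpl26 (295). Rplp1 ranged from 532 to 955 CPM per kb over the 22 libraries and so did not meet the range of Rps15, which ended at 500.3. The lowest were Rpl3l (0.219 CPM per kb), the muscle paralog of Rpl3, Rpl24 (0.532), Rpl6l (1.02), Rpl13a (8.63) and Rpl7l1 (13.3). Rpl39 ranked 67th with a median of 87.2 CPM per kb, and Rpl22l1 ranked 72nd with 31.7. By this measure both were among the less abundant members. Rpl39 had at most 3694 raw counts in a library and Rpl22l1 189 to 1088. The order depends on the length of the main transcript. Rps15a (5130 bases) ranked 73rd and Rps20 (3706 bases) 75th, with up to 7678 and 5088 counts in a library.

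Reads could not be assigned equally well to all members. The authors counted uniquely aligned reads without strand, and 15 of the 82 main transcripts overlap an exon of another gene. In 44 members, at least 50% of the 50-base stretches of the main transcript (GENCODE M21) also occur in transcripts of other genes. The median share was 52.2%. The study's reads were paired and longer than these stretches, so the share does not measure how many reads were lost. Rpl24 had at most 23 counts in any library although it encodes a protein of the large subunit, and 71.5% of its transcript overlaps Gm28037. Rpl13a, also among the lowest, had at most 578 counts, and 59.3% of its transcript overlaps Gm45713 or Mir5121. Of the Rpl22l1 transcript (chr3:28805436-28807424, plus strand), 28.8% overlaps Gm33051 and 57.3% of its 50-base stretches occur in 3 other genes. Rpl39 (chrX:37082520-37085402, minus strand) overlaps no other gene and shares 16.2% of them. The share was 98.65% for Rps27 and 93.32% for Rpl9, members that are named again below. The members Rps4l and Rpl6l are annotated as pseudogenes. Levels of members with such overlap or sharing are uncertain.

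**Figure D1:**
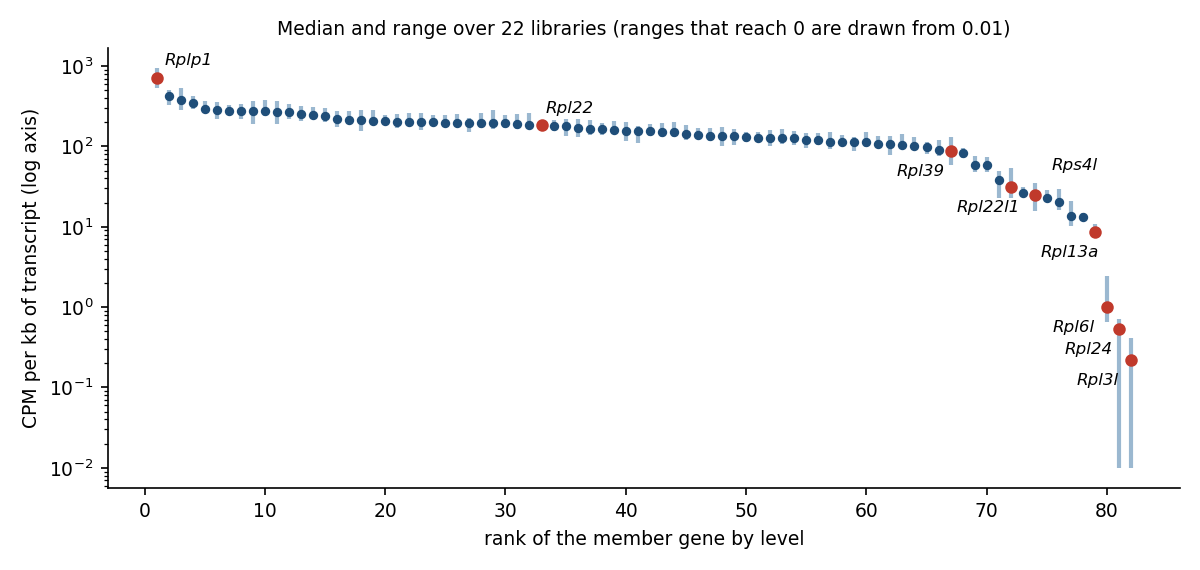
Level of the 82 member genes in CPM per kb of the main transcript (log axis), ordered by rank. Points are medians over the 22 libraries and lines run from the lowest to the highest library. Rplp1 is highest at 722 CPM per kb, Rpl39 (87.2) and Rpl22l1 (31.7) lie in the lower part of the order, and Rpl6l, Rpl24 and Rpl3l lie near the bottom.

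Most members varied together from library to library. Over the 78 members with 100 or more counts in each of the 22 libraries, the first principal component of log2 CPM held 56.3% of the variance, and the median Pearson r between 2 members was 0.64 (n = 22 libraries, which share groups and scaling). Most members varied little: the median SD of log2 CPM over the 22 libraries was 0.15, against 0.29 for Rpl22l1 and 0.28 for Rpl39. Rpl22l1 was most like Rpl39 (r = 0.85), then Rps27 (r = 0.83) and Rpl9 (r = 0.75), while its median r with all other members was 0.29. Rpl39 was most like Rpl34 (r = 0.91), Rpl9 (r = 0.91) and Rps27a (r = 0.86), with a median r of 0.51. After the mean of each of the 4 groups was removed, r between Rpl22l1 and Rpl39 was 0.68, and the median r with the other members was 0.09 for Rpl22l1 and 0.43 for Rpl39.

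The first comparison was of genotype in SH. None of the 82 members, all of which passed the filter on low counts, was called in KD SH over WT SH in the 17 libraries, where a call meant that edgeR's quasi-likelihood test gave an adjusted p no higher than 0.05 with a log2 fold change of at least 0.38 in either direction. Of all 18701 genes tested, 0% were called. An unadjusted p under 0.05 was given to 10 members against 4.95% of all genes, and 9 of the 10 were higher in KD SH against 2.6% of all genes. Among them were Rpl22l1 (0.60), Rpl39 (0.54), Rpl9 (0.25), Rpl34 (0.24), Rps27 (0.23), Rps27a (0.22), Rps19 (0.20) and Rpl10 (0.16), with log2 fold changes in parentheses. The pseudogene Rps4l was lower (-0.43).

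The family as a whole stood slightly above the other genes in KD SH. The median log2 fold change of the 82 members was 0.06, against 0.003 for all genes tested, with 59 members higher and 23 lower. The 51 large subunit genes had a median of 0.05 and the 31 small subunit genes a median of 0.07. The 31 members that overlap no other gene and share less than 50% of their 50-base stretches also had a median of 0.05. A single library weighed heavily in this value, since without KD SH replicate 1 the median was 0.01. Over all 22 libraries the median was 0.08 (72 higher, 10 lower). There again 0% of genes and 0 members were called, and an unadjusted p under 0.05 was given to 13 members against 5.76% of all genes, 12 of them higher in KD SH against 2.95%.

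The mean log2 CPM over all members, used as a family score, showed the same spread directly. In WT SH it ran from 6.36 to 6.52 with a median of 6.4 over 6 libraries, and in KD SH from 6.29 to 6.75 with a median of 6.5. The KD SH libraries thus surrounded those of WT SH on both sides. The 2 highest KD SH values were those of replicate 2 (6.75), which lies outside the 17, and replicate 1 (6.64), and the lowest was that of replicate 5 (6.29).

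Rpl22l1 stood well above this family shift in SH. In WT SH its level ran from 12.5 to 17.6 CPM with a median of 15.3 over 6 libraries. In KD SH it ran from 18.5 to 29.7 CPM with a median of 21.4. Every KD SH library lay above every WT SH library, the highest being KD SH replicates 5 (29.7) and 1 (26.1). Over the 17 libraries the log2 fold change was 0.60 (SE 0.12, edgeR quasi-likelihood adjusted p = 0.4659), and over the 22 libraries it was 0.57 (SE 0.11, adjusted p = 0.335). The study picked out both Rpl22l1 and Rpl39 by their difference in SH in these 17 libraries, so these values are a description and not independent evidence.

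Rpl39 was also higher in KD SH, with a small overlap. It ran from 36.2 to 63.1 CPM with a median of 46.3 in the 6 WT SH libraries and from 55.4 to 80.0 CPM with a median of 67.5 in the 6 KD SH libraries. The only WT SH library inside the KD SH range was replicate 12 (63.1 CPM), which is not among the 17. The log2 fold change was 0.54 (SE 0.11, edgeR adjusted p = 0.4659) over the 17 libraries and 0.49 (SE 0.11, adjusted p = 0.748) over the 22. By unadjusted p, Rpl39 was 1st and Rpl22l1 2nd of 18701 genes. The 2 libraries that the study did not use to choose these genes, KD SH replicate 2 and WT SH replicate 12, gave 22.7 against 17.2 CPM for Rpl22l1 and 77.4 against 63.1 CPM for Rpl39. Replicate 2 also had the highest family score (6.75), and the log2 ratios of this pair to the other members lay closer together, at -2.28 against -2.44 for Rpl22l1 and -0.48 against -0.55 for Rpl39.

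The call for this pair depended on the fit. With DESeq2's Wald test on the same 17 libraries, both genes were called in KD SH over WT SH (adjusted p = 0.0275 for each), together with 0.00876% of all genes given an adjusted p. With edgeR and no filter on low counts, both were called as well (adjusted p = 0.000498 for Rpl22l1 and 9.08e-05 for Rpl39), where 0.0321% of all genes were called. The fold changes were nearly the same in all 3 fits. KD SH replicate 5, which had the highest Rpl22l1 level, also had the lowest dentate granule cell marker sum (260 CPM) and the lowest pyramidal cell marker sum (435 CPM) of the 22 libraries. Without this library the log2 fold changes were 0.49 for Rpl22l1 and 0.50 for Rpl39. Between the SH groups the 10 choroid plexus markers had a median of -0.53 (0 higher) and the 5 striatal markers one of -0.52 (0 higher), while the 5 blood markers had one of 0.29 (5 higher). Over all 22 libraries the choroid plexus median was instead 0.25 (10 higher), the striatal -0.44 (0 higher), the blood 0.38 (5 higher) and that of 5 thalamic markers -0.43 (0 higher). None of these markers was called, and their part in the result was not tested. Single libraries stood high in the sums. In the 17, choroid plexus markers summed to 1322 CPM in WT SH replicate 11, against group medians of 264 (WT SH) and 316 CPM (KD SH). Striatal markers summed to 126 CPM in WT SH replicate 14 (group median 59.9). Of the added libraries, KD SH replicate 2 held 4284 CPM of choroid plexus markers. WT SH replicate 12 held 2736 CPM of these and 351 CPM of thalamic markers (group median 107).

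**Figure D2:**
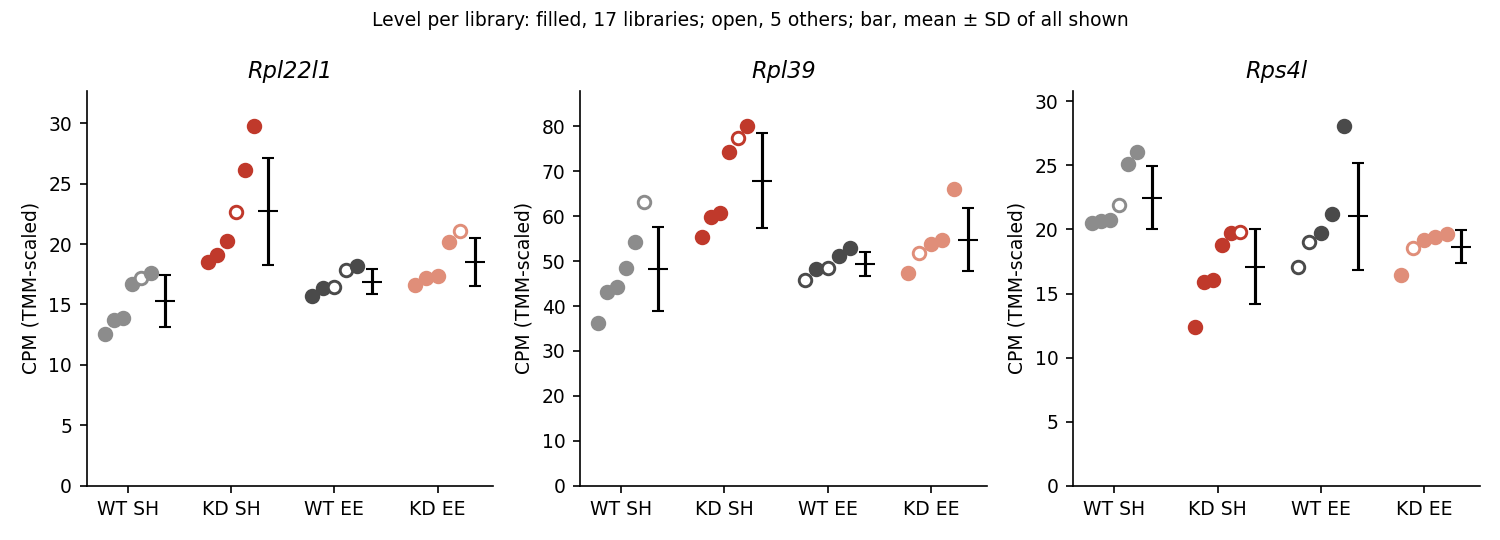
Levels of Rpl22l1, Rpl39 and Rps4l in CPM (TMM-scaled) in each of the 22 libraries by group. Filled points are the 17 libraries, open points the 5 others, and bars show the mean ± SD of all points in a group. KD SH libraries lie above WT SH libraries for Rpl22l1 and below them for Rps4l, and the EE groups overlap for each of the 3 genes.

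Measured against their own family, both genes kept their distance in SH. The log2 ratio of Rpl22l1 to the geometric mean of the other 81 members averaged -2.55 ± 0.18 (SD, n = 5) for WT SH libraries and -2.004 ± 0.35 (SD, n = 5) for KD SH libraries, a difference of 0.55. For Rpl39 the ratio averaged -0.93 ± 0.17 (SD, n = 5) for WT SH libraries and -0.43 ± 0.24 (SD, n = 5) for KD SH libraries, a difference of 0.50. In these 17 libraries they were the 2 largest of the 82 differences computed in this way, the next being 0.20, and the median was 0.001. Over all 22 they were 0.49 for Rpl22l1 and 0.42 for Rpl39, again the 2 largest, with 0.16 next. The study chose both genes by their SH difference in the 17 libraries, which the wider set also holds. These ranks are therefore a description and not independent evidence. When libraries were scaled by the member genes themselves, the fitted log2 fold changes were 0.56 and 0.49. The ratio to the family therefore differed between the SH groups by nearly as much as the level itself. A single library weighed heavily in these differences. KD SH replicate 5 had the highest ratios, -1.41 for Rpl22l1 and -0.08 for Rpl39, and the lowest family score of its group (6.29). Next came KD SH replicate 1, at -1.95 and -0.32.

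**Figure D3:**
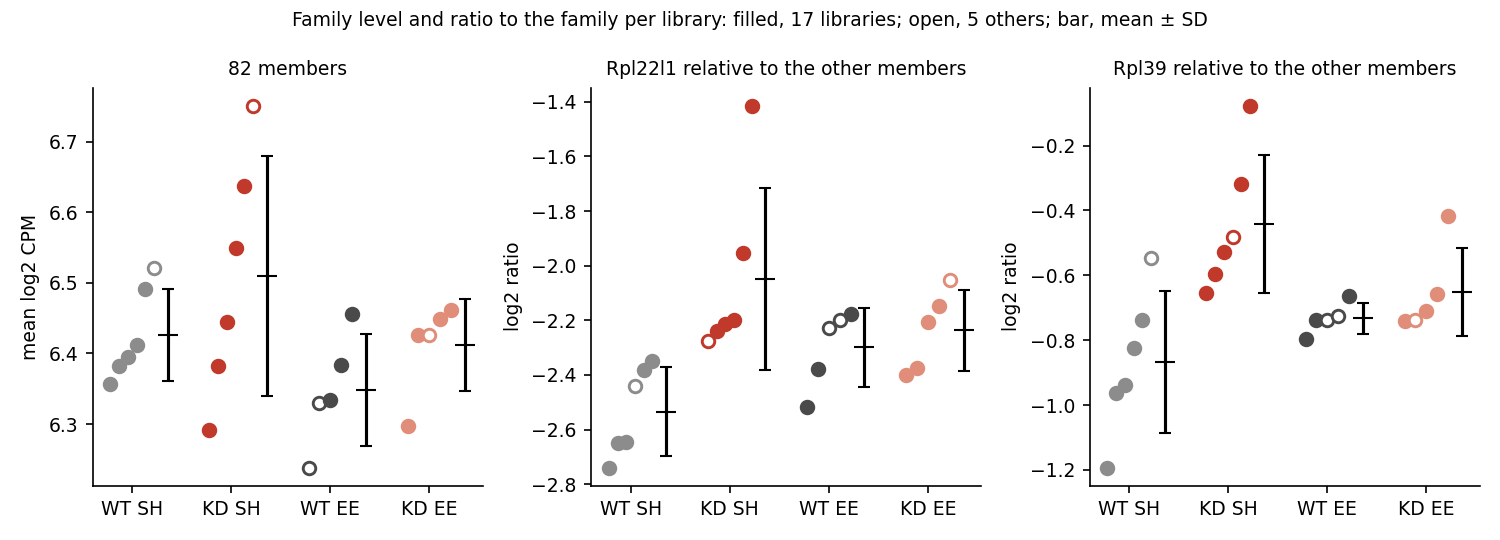
Mean log2 CPM of the 82 members (left) and log2 ratio of Rpl22l1 (middle) and Rpl39 (right) to the geometric mean of the other members, in each of the 22 libraries by group. Filled points are the 17 libraries, open points the 5 others, and bars show the mean ± SD. The family score overlaps between WT SH and KD SH, while every KD SH library exceeds every WT SH library in the Rpl22l1 ratio.

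In EE the difference between genotypes had a lower estimate than in SH for both genes. The genes were chosen by their difference in SH, so the housings are not compared on equal terms. Rpl22l1 measured 16.4, 15.7, 17.8, 18.2 and 16.4 CPM in the 5 WT EE libraries and 20.2, 16.6, 21.04, 17.4 and 17.2 CPM in the 5 KD EE libraries. The groups overlapped, with KD EE replicates 7 and 9 above all WT EE libraries. Rpl39 measured 48.3, 53.0, 48.5, 51.2 and 45.9 CPM in WT EE and 66.1, 54.8, 51.9, 47.3 and 53.8 CPM in KD EE. Only KD EE replicate 7, at 66.1 CPM, lay far from the others. The log2 fold change of KD EE over WT EE in the 17 libraries was 0.08 (SE 0.15, edgeR adjusted p = 0.964) for Rpl22l1 and 0.12 (SE 0.13, adjusted p = 0.917) for Rpl39. Without the lettered EE libraries 32A, 33A and 36A these values were 0.19 and 0.25, from 2 libraries in each EE group, and neither was called.

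The EE libraries were not used to choose the genes, so the ratio to the family was tested there. For Rpl22l1 it was higher by 0.07 in 4 KD EE than in 3 WT EE libraries (exact permutation test, two-sided, p = 0.514, smallest p allowed 0.0571). In 5 against 5 libraries the difference was 0.06 (exact permutation p = 0.532, smallest p allowed 0.00794). For Rpl39 the differences were 0.10 in the 17 libraries (exact permutation p = 0.286) and 0.08 in the 22 (exact permutation p = 0.222). Among the 82 members, Rpl22l1 and Rpl39 ranked 20th and 11th by this difference in the 17 libraries. No difference in EE was detected for either gene, in a design of 3 against 4 libraries that could not reach 0.05.

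Whether the genotype difference itself changed with housing was tested by the interaction. It was -0.52 on the log2 scale for Rpl22l1 (SE 0.19, edgeR adjusted p = 0.875) and -0.42 for Rpl39 (SE 0.17, adjusted p = 0.875), so a difference between SH and EE was not established. Only 3 members had an unadjusted p under 0.05 for the interaction, these being both genes and Rpl23a (0.43), against 5.51% of all genes. With all 22 libraries the same 2 genes had one, Rpl22l1 at -0.45 and Rpl39 at -0.35, against 2.04% of all genes. No member was called in either set, and 0% of all genes were. The SH difference by which the study chose both genes is part of this contrast. Their negative values and low unadjusted p in it are therefore a description and not independent evidence.

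Averaged over both housings with equal weight, KD over WT was 0.34 (SE 0.10, edgeR adjusted p = 0.742) for Rpl22l1 and 0.33 (SE 0.08, adjusted p = 0.604) for Rpl39. The SH difference by which the study chose both genes is part of this mean, and the EE values were 0.08 and 0.12. The means over both housings are therefore a description and not independent evidence. The median of all members was 0.05, and 0 members and 0% of genes were called. An unadjusted p under 0.05 was given to 10 members against 6.1% of all genes, with 9 of them higher in KD against 2.73%. In the 22 libraries, where again nothing was called (0%), these numbers were 22 members against 6.06% and 21 higher members against 3.45%, and the member median was 0.08. Most members vary together, so such counts are not counts of separate results. Of the libraries that the wider set adds, KD SH replicate 2 had the highest family score of the 22 (6.75) and WT EE replicate 35A the lowest (6.24).

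**Figure D4:**
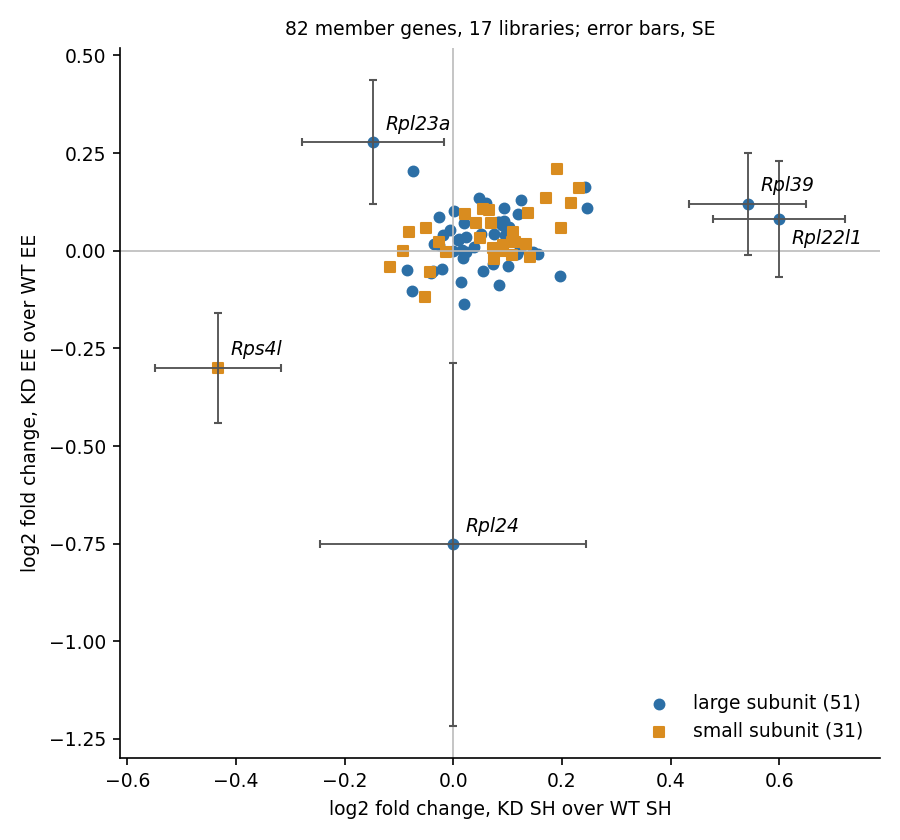
log2 fold change of each of the 82 member genes in KD SH over WT SH (horizontal) and KD EE over WT EE (vertical), from the 17 libraries. Circles are large subunit genes and squares small subunit genes, and error bars of the 5 named genes are standard errors. Rpl22l1 and Rpl39 lie far to the right at 0.60 and 0.54 and close to 0 on the vertical axis, while Rps4l is negative on both.

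Across the family in EE, genotype again left no call. The 82 members had a median log2 fold change of 0.03 (54 higher, 28 lower), against -0.002 for all genes, and 0 members were called where 0.00535% of all genes were. Without WT EE replicate 33A the median turned to -0.008. Only 1 member, Rps4l, had an unadjusted p under 0.05, against 6.4% of all genes. In the 22 libraries the median was 0.07 (74 higher, 8 lower), 0 members and 0% of genes were called, and 2 members, Rpl7l1 (0.13) among them, had an unadjusted p under 0.05 against 2.61% of all genes. Among the highest in the 17 libraries were Rpl23a (0.28), Rpl35 (0.20), Rpl34 (0.16) and Rps27 (0.16). The 5 lowest were Rpl24 (-0.75, on counts of 23 or fewer), Rps4l (-0.30), the stalk protein gene Rplp2 (-0.14), Rps16 (-0.12) and Rpl36 (-0.10). None of these differences passed the adjusted threshold.

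Groups that did not overlap were few. In the 17 libraries, every KD SH library exceeded every WT SH library for 2 members, Rpl22l1 and Rpl39, against 0.487% of all genes, and lay below for 1, Rps4l, against 0.535%. In EE, 1 member was higher without overlap, Rpl23a, against 2.36% of genes, and 1 was lower, again Rps4l, against 4.04%. In the 22 libraries, Rpl22l1 was the single member higher in KD SH (0.173% of genes) and Rps4l the single member lower (0.103%). No member was separated in EE, where 0.151% of genes were higher and 0.173% lower.

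Rps4l was the lowest member in KD SH over WT SH. It lies at chr6:148354656-148355598 (plus strand), is annotated as a transcribed processed pseudogene, and overlaps no other gene. Its level ran from 20.5 to 26.0 CPM with a median of 21.4 in 6 WT SH libraries, and from 12.4 to 19.8 CPM with a median of 17.4 in 6 KD SH libraries. All KD SH libraries were below all WT SH libraries, with replicate 5 lowest. In WT EE the values were 21.2, 28.0, 19.0, 19.7 and 17.1 CPM, and in KD EE 19.6, 16.4, 18.6, 19.4 and 19.2 CPM, which overlap. The log2 fold change was -0.43 (SE 0.12, edgeR adjusted p = 0.881) in SH and -0.30 (SE 0.14, adjusted p = 0.772) in EE. With all 22 libraries the value in EE was -0.17 (SE 0.12). The protein-coding Rps4x, a small subunit gene on the X chromosome, was at 0.09 (SE 0.07) in SH and 0.01 (SE 0.08) in EE.

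Rpl9, Rpl34 and Rps27 followed Rpl22l1 and Rpl39 in SH and lay above the upper quartile of the members, 0.11. Rpl9, a large subunit protein, ran from 178 to 220 CPM (median 196) in 6 WT SH libraries and from 197 to 283 CPM (median 231) in 6 KD SH libraries. Rpl34 ran from 64.8 to 96.4 CPM (median 80.4) and from 78.5 to 107 CPM (median 93.2) in the same groups. Rps27, a zinc finger protein of the small subunit, ran from 66.9 to 77.8 CPM (median 71.4) and from 70.1 to 98.4 CPM (median 84.4). All 3 overlapped between genotypes, and KD SH replicates 1 and 2 were among their higher values. At the other end, Rpl23a (-0.15), Rps15 (-0.12), Rps12 (-0.09) and Rplp0 (-0.09), the base of the stalk, had the lowest log2 fold changes after Rps4l. Rpl23a was low in a single KD SH library, replicate 5, at 12.6 CPM, where the other 5 ran from 19.6 to 27.4 CPM.

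Paralogs could be set beside their parents. Rpl22 ran from 80.1 to 92.5 CPM (median 86.2) in 6 WT SH libraries and from 83.8 to 100.5 CPM (median 95.7) in 6 KD SH libraries, with a log2 fold change of 0.10 (SE 0.06, edgeR adjusted p = 0.881). The log2 ratio of Rpl22l1 to Rpl22 averaged -2.54 ± 0.15 (SD, n = 5) for WT SH libraries and -2.04 ± 0.33 (SD, n = 5) for KD SH libraries, against -2.41 ± 0.10 (SD, n = 3) for WT EE and -2.28 ± 0.09 (SD, n = 4) for KD EE. The ranges of Rpl22 overlapped between the SH groups. In KD SH replicate 5, which had the highest Rpl22l1 level, Rpl22 was at 84.2 CPM, and in KD SH replicate 1, with the next highest, it was at 100.5 CPM. Rps27l was at 0.11 (SE 0.14) in KD SH over WT SH beside 0.23 (SE 0.09) for Rps27. Rpl36al was at 0.09 (SE 0.09) beside 0.12 (SE 0.08) for Rpl36a. Rpl7l1 was at 0.05 (SE 0.06) beside 0.10 (SE 0.07) for Rpl7. Rpl3l and Rpl6l had too few counts to compare, at 0.08 (SE 0.47) and 0.20 (SE 0.23) beside 0.08 (SE 0.07) for Rpl3 and 0.02 (SE 0.07) for Rpl6. Among these paralogs, Rpl22l1 had the highest value and Rps4l the lowest.

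Housing was examined in each genotype. In the 17 libraries, EE over SH gave 0 called members in WT, where 3.55% of all genes were called, and 0 in MSK1 KD, where 1.74% were. The member median was -0.03 for WT (30 higher, 52 lower) and -0.05 for MSK1 KD (18 higher, 64 lower). An unadjusted p under 0.05 was given to 3 members in WT against 13.7% of all genes, and to 4 members in MSK1 KD against 11.3%. The 4 were Rpl24 (-0.93), Rpl22l1 (-0.35), Rpl39 (-0.25) and Rps23 (-0.16). In WT, Rpl22l1 and Rpl39 were both at 0.17 (SE 0.14 and 0.12). The study chose both genes by their difference between the SH groups, which are the reference of these contrasts. Their housing values are therefore a description and not independent evidence. Single libraries decided the small family medians: without WT EE replicate 33A the WT median was 0.02, and without KD SH replicate 1 the MSK1 KD median was -0.005.

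With 22 libraries the members were lower still in EE, with medians of -0.09 (WT) and -0.11 (MSK1 KD), and for MSK1 KD 75 of 82 were lower. No member and 0% of genes were called in either genotype. An unadjusted p under 0.05 was given to 10 members in WT against 8.65% of all genes, and all 10 were lower, against 3.4% of genes in that direction. In MSK1 KD it was given to 18 members against 9.63%, and all 18 were lower, against 4.6%. Most members vary together, so these are not counts of separate results. The wider set also adds KD SH replicate 2 and WT EE replicate 35A, which had the highest and the lowest family score. The choroid plexus markers moved with housing as given above. With a choroid plexus score as a covariate in the 17 libraries, the EE over SH member median was 0.01 in WT and -0.03 in MSK1 KD. In that fit Rpl22l1 was at 0.57 in WT and -0.005 in MSK1 KD, and Rpl39 at 0.48 and 0.01. The housing values of both genes thus depended on this term, and none was called. In the 17 libraries, choroid plexus marker sums ended at 1322 CPM in SH and began at 1639 CPM in EE. With no overlap, the term could hardly be told apart from housing, so these housing values are extrapolations. The SH genotype values of the same fit were 0.57 for Rpl22l1 and 0.52 for Rpl39. Libraries whose codes carry a letter occurred only in EE. Without them the EE over SH member median was 0.03 in WT and 0.0006 in MSK1 KD, so the lower level of the members in EE was not seen in that fit.

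Other lists of genes were set beside the members. The 5 ribosomal protein genes outside the symbol pattern, among them Rps3a1, Rpsa, Rack1 and Fau, had a median of 0.09 in KD SH over WT SH, with 5 of 5 higher. The 14 other TOP mRNAs, among them those of elongation and initiation factors, had a median of 0.005, with 8 higher. The 20 genes of ribosome biogenesis had a median of -0.01, with 9 higher. The 77 mitochondrial ribosomal protein genes had a median of 0.05, with 61 higher, and the 78 nuclear genes of oxidative phosphorylation a median of 0.07, with 62 higher. No gene of these 5 lists was called for genotype in SH. Beside the median of 0.06 of the cytosolic members, the mitochondrial and oxidative phosphorylation lists had medians of similar size, and no test of these differences was made. In EE over SH, 3 oxidative phosphorylation genes were called in WT, Cox8b (3.82), Cox6b2 (1.37) and Cox7a1 (1.23), and the first 2 also in MSK1 KD (3.36 and 0.89). No gene of the other 4 lists was called in either genotype.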

How the data were processed

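Hippocampal RNA was sequenced as poly(A)-selected libraries. Reads were trimmed (Skewer) and aligned to GRCm38 (STAR, version 2.5), and the authors counted unique alignments without strand (HTSeq). The deposited counts are raw and not normalized, for 49568 symbols. Rows that name no gene held 14.05% to 18.6% of the counts of the 22 libraries and were left out. A further table of scaled values was not used here.

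Counts were tested in R 4.3.3 with edgeR 4.0.16 (filterByExpr, TMM, a quasi-likelihood fit with a mean per group over 17 libraries, Benjamini-Hochberg over all genes tested) and, as an alternative, DESeq2 1.42.0. The procedure was tested on simulated data. Values per library are CPM on TMM-scaled sizes of the 22 libraries, and log2 values add 0.5 counts. Ratios to the family were compared by exact permutation of samples. Named genes were Rpl22l1, Rpl39, members and list genes called, paralogs with their parents, the 5 highest and 5 lowest members by level and by genotype fold change, and the 3 members most correlated with Rpl22l1 or Rpl39; the members with an unadjusted p under 0.05 were named after their values were seen. Some items that this rule names are not reported here. Members and lists were chosen with earlier results of these data known. The labels do not say whether libraries of a group came from separate animals, so p-values measure the spread between these samples. In all, 25 alternative fits were made.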

Additional observations from a re-analysis of the deposited data

Results flagged for a closer look

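Within the 4 groups of the 22 libraries, 56 sets of values were screened for a library that stands apart from the others by Dixon's criterion, and 2 did. Chance alone gives about 1 in 20 such sets. The log2 ratio of Rpl39 to the other members was -0.418 in KD EE replicate 7, above the next library at -0.657. The family score, the mean log2 CPM of the 82 members, was 6.30 in KD EE replicate 32A, below the next library at 6.43.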

How the results depend on the processing

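Beside the main fit, 25 others were made, 17 of them without 1 library each, and the ratio to the family was also taken with 2 other references. Of 1002 values beside the main ones, 992 stayed on the same side of the threshold without a change of direction or, for family medians, moved by less than 1 SD of the family score, which let small medians pass through 0. Without the lettered libraries the EE over SH medians were 0.03 in WT and 0.0006 in MSK1 KD. The alternatives for the family medians and for the members with the most extreme fold changes were added after seeing the data. DESeq2's Wald test and edgeR without a filter on low counts each gave 2 called members in KD SH over WT SH. In these fits the log2 fold change was 0.60 and 0.60 for Rpl22l1 and 0.54 and 0.54 for Rpl39, and the cause of the calls was not tested. Leaving out 1 library moved Rpl22l1 between 0.49 and 0.67 and Rpl39 between 0.46 and 0.62 in SH, with no call. The ratio to the family in EE ran from -0.00579 (without WT EE replicate 17) to 0.16 for Rpl22l1 in the 17 libraries and from 0.03 to 0.14 for Rpl39. With all 24 libraries the Rpl39 ratio turned to -0.0195, where KD EE replicate 34B had 0 counts of Rpl39. Rpl36 in EE ran from -0.178 to 0.0349 without 1 library, its highest value being without WT EE replicate 17, and the Rps16 log2 fold change, KD EE over WT EE, turned to 0.00036 with all 24 libraries. Family medians without 1 library ran from 0.01 to 0.10 in SH and from -0.008 to 0.07 in EE, between -0.06 and 0.02 for housing in WT, between -0.09 and -0.005 in MSK1 KD, and between -0.06 and 0.03 for the interaction. No paired analysis was possible because the groups share no replicate numbers.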
